A study of Homo sapiens with 6 samples.

Results

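The cytosolic ribosomal protein genes encode the proteins of both ribosomal subunits. They were taken from the deposited gene table as the protein-coding genes whose symbols are RPL or RPS followed by a number, with an optional A or X, together with RPLP0, RPLP1, RPLP2 and RPSA. This rule found 77 genes, 46 of the large subunit and 31 of the small subunit, among 58735 genes and 19951 protein-coding genes in the table. It left out FAU, whose ribosomal protein is made as a fusion with a ubiquitin-like protein, and the paralogs whose symbols end in L or L1.

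RNA was sequenced from A549 cells, an established line from a human lung adenocarcinoma grown in F12K medium with serum. Cells carried either the empty plasmid pcDNA3.1, labelled wild type, or a plasmid for ZBTB16, a zinc-finger transcriptional repressor also called PLZF. Each group had 3 libraries. Whether these came from separate cultures is not stated, so a p-value here reflects library-to-library spread, which can be purely technical. The labels used here give neither a plasmid amount nor a time after transfection.

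Cytosolic ribosomes translate nuclear-encoded mRNA, and rapidly growing cells devote much of their transcription to building them. Ribosomal protein mRNAs in vertebrates usually begin with a C followed by a run of pyrimidines, the terminal oligopyrimidine or TOP motif, through which mTOR signalling controls their translation. Many of these genes also carry small nucleolar RNAs in their introns, and retrotransposition has left numerous pseudogene copies of them in the genome.

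Values are FPKM, read fragments scaled to the kilobases of merged exon and to library size. The reads behind them could be recovered as whole numbers and came to between 15478010 and 17319971 per library. ZBTB16 was listed at 0 in each empty-vector library and stood at 426, 488 and 456 FPKM in the ZBTB16 libraries. The epithelial keratins KRT8 and KRT18 averaged 607 and 507 FPKM, while the epithelial adhesion marker CDH1 averaged 6.77 FPKM and EPCAM ran from 1.05 to 1.47 FPKM. The 5 alveolar type 2 markers summed to between 9.58 and 9.72 FPKM with the empty vector and between 9.82 and 10.9 FPKM with ZBTB16, nearly all of it ABCA3, which averaged 9.93 FPKM. The 3 immune markers summed to between 3.15 and 3.67 FPKM over all libraries, and the 4 fibroblast and endothelial markers to between 2.06 and 2.32 FPKM. The extraction text in the labels names retinas. The 6 retina markers summed to between 0.0567 and 0.136 FPKM in the empty-vector libraries and between 0.0156 and 0.116 FPKM in the ZBTB16 libraries, and CRX and RPE65 were listed at 0 in every library.

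The start sites show the sequence feature by which these mRNAs are usually recognised. RefSeq start windows on GRCh38.p14 were available for 62 of the 77 genes, with 77 annotated starts. The windows below hold 15 bases before and 15 from an annotated start, on the gene's strand. Capitals mark a run of at least 5 pyrimidines, counted from a C within 5 bases of that start. Other pyrimidines can lie directly before that C, as in RPL38 and RPS19. The windows are shown because they belong to genes described below: the stalk proteins, RPS6 and RPS19, 2 genes with small p (RPL21 and RPS12), the short and abundant RPL41, genes that varied most between libraries, and RPS29, which has no run.
RPLP0, chr12:120201097-120201126, minus strand: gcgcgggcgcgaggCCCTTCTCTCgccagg
RPLP1, chr15:69452803-69452832, plus strand: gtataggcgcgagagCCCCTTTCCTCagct
RPLP2, chr11:809952-809981, plus strand: ttgcgtcggcgCCTTCCTTTTCCTCCCTgt
RPS6, chr9:19380222-19380251, minus strand: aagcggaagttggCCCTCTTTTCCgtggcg
RPS19, chr19:41860240-41860269, plus strand: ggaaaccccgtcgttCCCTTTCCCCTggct
RPL21, chr13:27251543-27251572, plus strand: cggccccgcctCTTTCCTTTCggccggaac
RPS12, chr6:132814554-132814583, plus strand: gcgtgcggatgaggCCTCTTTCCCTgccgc
RPL41, chr12:56116618-56116647, plus strand: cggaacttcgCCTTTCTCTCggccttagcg
RPS23, chr5:82278340-82278369, minus strand: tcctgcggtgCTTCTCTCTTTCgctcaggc
RPS28, chr19:8321481-8321510, plus strand: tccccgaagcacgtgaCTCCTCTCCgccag
RPS21, chr20:62387088-62387117, plus strand: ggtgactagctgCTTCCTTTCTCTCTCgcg
RPL38, chr17:74203663-74203692, plus strand: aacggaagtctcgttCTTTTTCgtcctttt
RPS29, chr14:49598696-49598725, minus strand: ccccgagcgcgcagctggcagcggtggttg

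Such a run stood at 57 of the 77 ribosomal protein starts (74.0%), against 7408 of the 35116 starts in the whole RefSeq table (21.1%). By gene, 53 of 62 (85.5%) had it at 1 start or more, against 25.2% of all genes with listed starts and 27.8% of other protein-coding genes. RPS29 had none at its listed start, nor had RPL9, RPS4X, RPS15, RPS26, RPL27 and RPL17; no match says only that these letters are not at that annotated position. In the 300-base windows, from 250 bases before to 50 after the start, the letters CCGGAAG on either strand, a core bound by ETS factors, were found at 33.8% of ribosomal protein starts and 10.3% of all starts. AAGATGGC, a YY1 core, was found at 6 of 77 ribosomal protein starts (7.79%) and 2.89% of all starts, and the 2 motifs do not contain each other. At starts of other protein-coding genes the shares were 12.8% for CCGGAAG and 3.52% for AAGATGGC.

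The genes also shared features outside the start. They lay on 21 chromosomes, with 12 on chromosome 19. Their median coding length was 456 bases, against 1378 bases for other tested protein-coding genes. Small nucleolar RNAs sat inside 28 of the 77 genes (36.4%), 60 of them in all, and inside 175 of 10732 other tested protein-coding genes (1.63%). The table listed 1132 pseudogenes named after 76 of these genes, of which 395 had at least 1 read.

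Ribosomal protein transcripts were abundant in both groups. The median gene stood at 166 FPKM, against 7.06 FPKM for the other protein-coding genes tested, and 53 of 77 genes averaged 100 FPKM or more. RPL13A, a large-subunit protein also known for silencing translation of inflammatory mRNAs after interferon-gamma, was highest at 974 ± 69.3 FPKM (SD, n = 3) with the empty vector and 953 ± 13.5 FPKM (SD, n = 3) with ZBTB16. RPL8, RPL41 and RPS12 were also among the highest, at means of 760, 709 and 693 FPKM over the 6 libraries. RPL41 was at 772, 685 and 699 FPKM with the empty vector and 764, 665 and 669 FPKM with ZBTB16. Its range overlapped that of RPS12, so the order of these neighbours is not resolved.

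**Figure D1:**
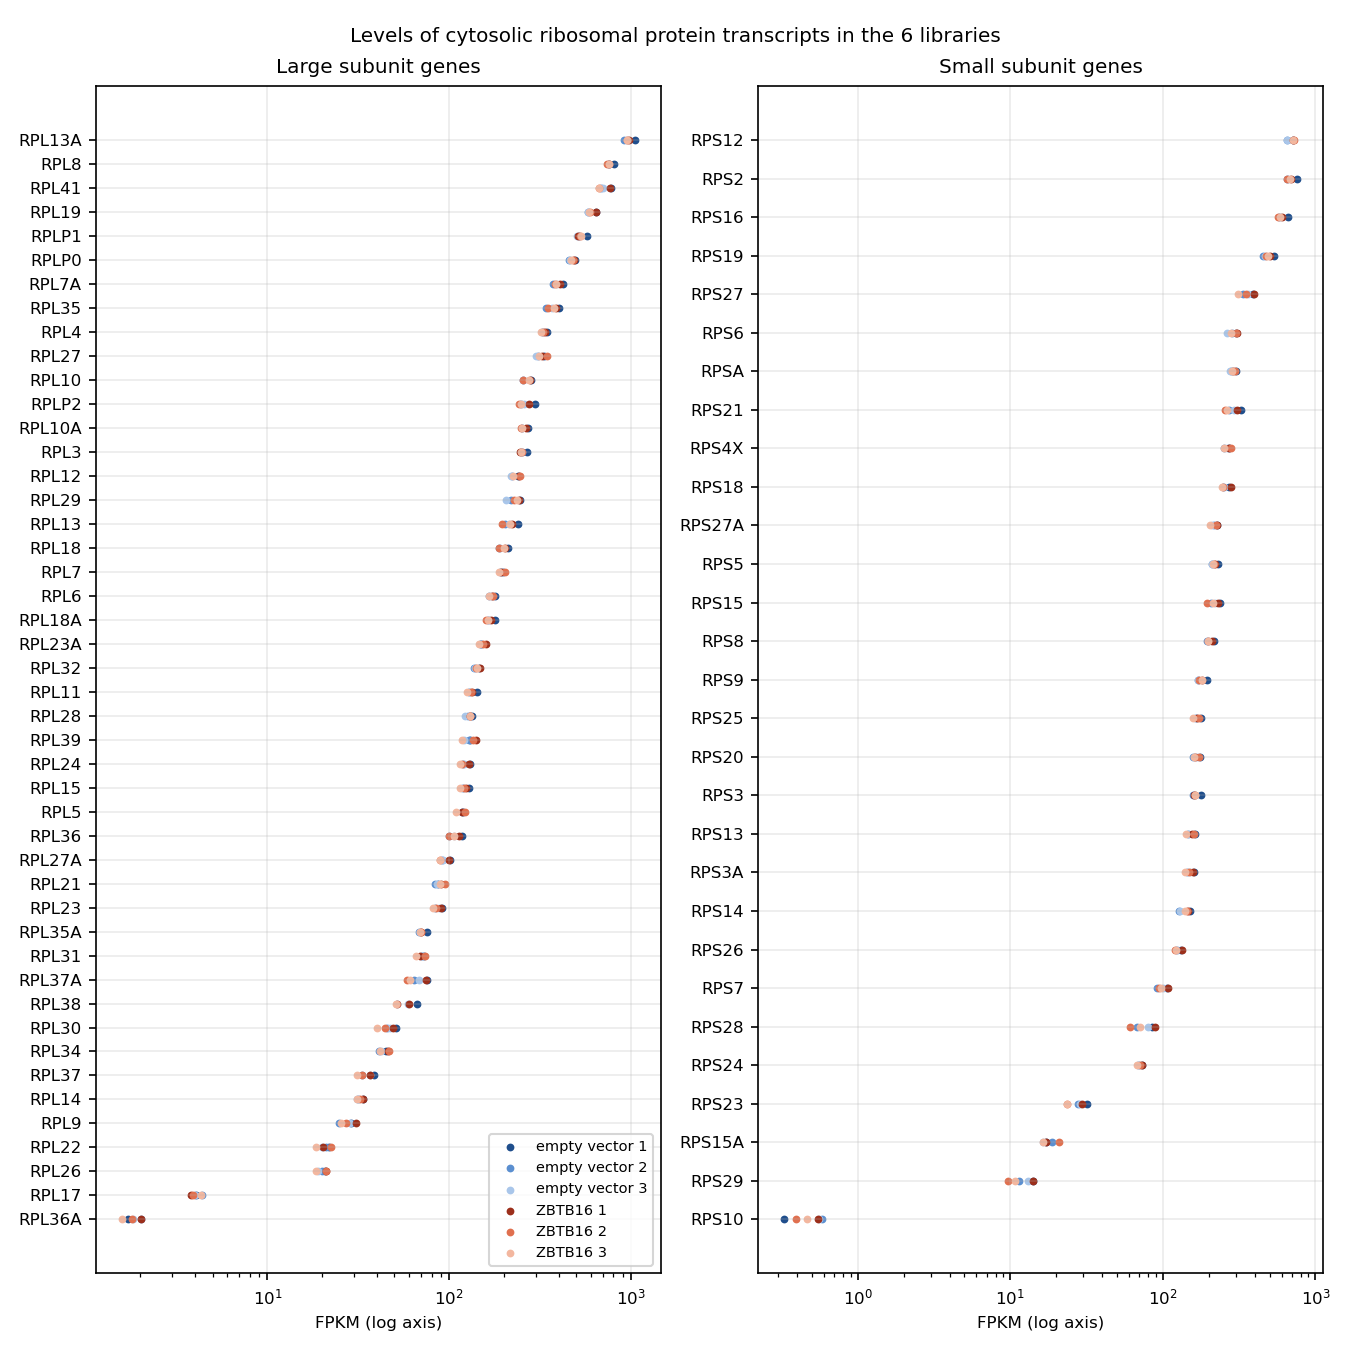
FPKM of the ribosomal protein genes reported by name (log axis) in the 3 empty-vector libraries (blue) and the 3 ZBTB16 libraries (red), with large-subunit genes on the left and small-subunit genes on the right, ordered by mean. Points of both groups lie together at every level, from RPL13A at a mean of 964 FPKM down to RPS10 at 0.48 FPKM.

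At the other end RPS10, RPL36A and RPL17 were lowest. RPS10 was at 0.329, 0.584 and 0.560 FPKM with the empty vector and 0.549, 0.397 and 0.465 FPKM with ZBTB16. RPL36A averaged 1.83 FPKM and RPL17 4.07 FPKM. RPL36AL, a paralog of RPL36A left out by the rule, averaged 168 FPKM. The proteins of RPS10, RPL36A and RPL17 are constitutive parts of the ribosome. The readthrough genes RPS10-NUDT3, RPL17-C18orf32 and RPL36A-HNRNPH2 share exons with these genes, and exons of other genes on the same strand cover 39.4% of RPS10, 32.7% of RPL17 and 8.40% of RPL36A. The counting of reads in shared exons is not described in the labels, so these levels are uncertain.

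Near-identical copies touch other genes. Pseudogenes named after ribosomal protein genes held between 3.18% and 3.35% as many reads as the genes themselves. In 2 genes they held more: RPS10 averaged 18.8 reads a library and its 11 pseudogenes 52.2, and RPL9 averaged 2298 reads and its 17 pseudogenes 3525, of which RPL9P9 had 3466. RPS28 had 2652 reads, and the pseudogene RPS28P7 had 1578. Pseudogene reads were under 1% of the gene's own reads for 41 genes. The split of reads between a gene and such copies is uncertain.

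The length used by FPKM changed the order of the levels. The deposited lengths are merged exons of all transcripts and equalled those of GENCODE release 29 for every gene; they were over 10 times the coding length in 19 of these genes, and 58.6 times in RPS29. In RPM (reads scaled to library size) per kilobase of coding sequence, RPL41, the shortest ribosomal protein, was first at 10313, followed by RPLP1 at 5071, RPS19 at 4254 and RPL13A at 3761. This scale divides all reads of a gene, those outside the coding sequence included, by its coding bases alone. It therefore raises genes with little coding sequence, such as RPL41 with 75 coding bases in a deposited length of 1088. Its order is not an order of transcript abundance. RPS29 moved from 12.2 FPKM to 716 on the coding scale. RPS10, RPL17 and RPL36A were lowest on both scales, at 2.30, 18.2 and 22.9 per coding kilobase.

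**Figure D2:**
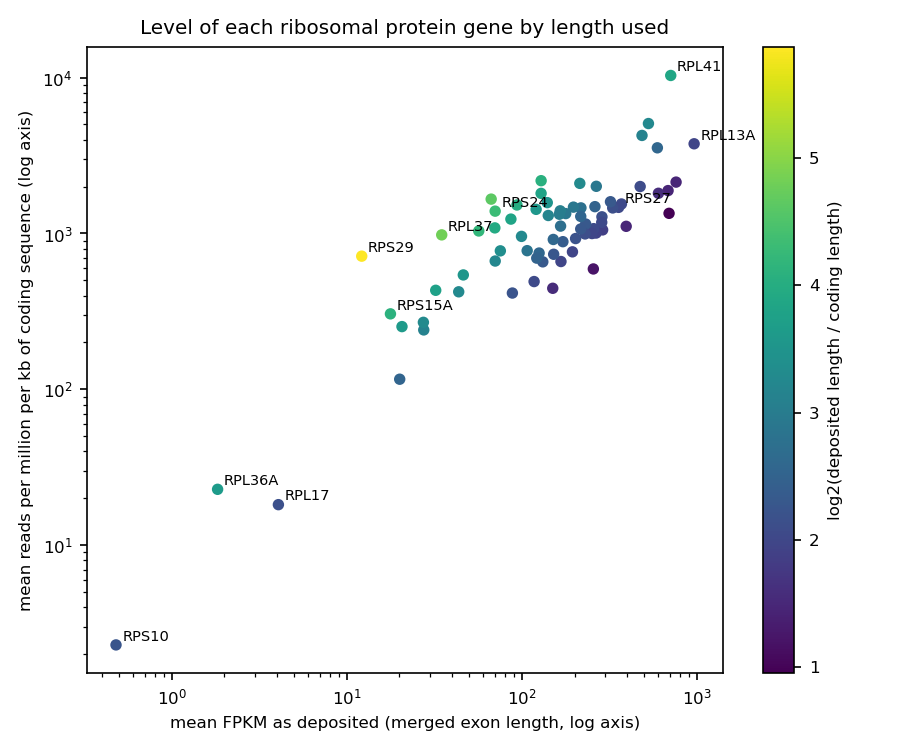
Mean level of the ribosomal protein genes reported by name over the 6 libraries as deposited FPKM (x, log axis) and as RPM per kilobase of coding sequence (y, log axis), coloured by the log2 ratio of deposited to coding length. RPS10, RPL36A and RPL17 lie lowest on both axes, and RPS29, with the largest ratio, lies far to the left of genes with a like coding-scale level.

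The main comparison asked how overexpressed ZBTB16 alters transcript levels in these cells. Together the ribosomal protein genes took 5.21%, 4.75% and 4.81% of reads in the empty-vector libraries and 5.00%, 4.83% and 4.77% in the ZBTB16 libraries. The groups overlapped, at 4.92% ± 0.250 and 4.87% ± 0.117 (SD, n = 3 each), and the difference of -0.0570 percentage points was smaller than either SD. It was 0.0863 without empty-vector library 1 and -0.145 without empty-vector library 2. In bulk RNA a change shared by all cells and a change in some cells cannot be told apart. Large-subunit genes took 3.20%, 2.94% and 2.98% and then 3.07%, 2.97% and 2.95% of reads. Small-subunit genes took 2.01%, 1.81% and 1.84% and then 1.92%, 1.86% and 1.83%.

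No ribosomal protein gene passed the test. Fold changes were fitted with limma on log2(FPKM + 1) over the 12499 genes averaging at least 1 FPKM, which kept 76 of the 77 genes and left out RPS10. At a Benjamini-Hochberg adjusted p of 0.05, 0 of 76 genes were called, against 0.0720% of all genes tested. At an unadjusted p of 0.05, 0 were higher and 0 lower, against 5.08% and 5.17% of all genes. Limma's voom on the recovered reads also called 0, with 1 gene lower at an unadjusted p of 0.05. The share of all genes at that p with voom is not given here. In the main fit, folds were higher in 30 genes and lower in 46, against 48.5% and 51.5% of all genes. Their median log2 fold change was -0.01, and that of all genes tested was -0.003. The median was 0.02 without empty-vector library 1, where 59 of 76 genes were higher, and 0.008 without ZBTB16 library 3. Medians of all genes tested in those 2 fits were -0.003 and -0.001. The share of all genes with higher folds without empty-vector library 1 is not given here, so that count is not read as a shift.

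The fit also set bounds on the differences. The 95% interval of the log2 fold change lay within 0.1 either side of 0 for 0 of 76 genes. It lay within 0.2 for 56 genes and within 0.5 for 75, RPS29 being the exception. Its median half-width was 0.13. Of the 76 fitted log2 fold changes, 70 were under 0.1 in size, against 70.7% of all genes tested. These sets were not matched for level, with medians of 166 FPKM here and 7.06 FPKM for other protein-coding genes tested. The large-subunit median was -0.02, with 17 genes higher and 29 lower, and the small-subunit median was -0.002, with 13 higher and 17 lower.

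**Figure D3:**
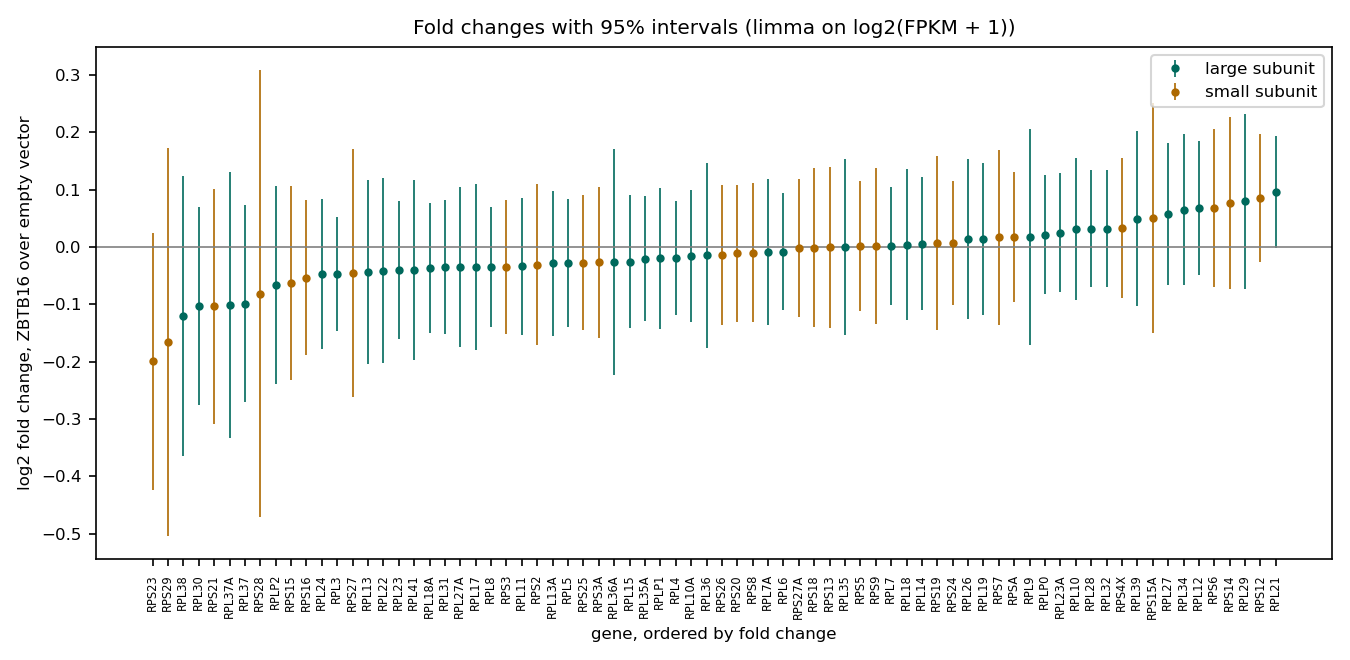
Log2 fold change of the tested ribosomal protein genes reported by name, ZBTB16 over empty vector, with its 95% interval from limma, coloured by subunit and ordered by size. Values run from -0.20 for RPS23 to 0.10 for RPL21, and every interval includes 0.

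RPL21, a large-subunit protein, had the smallest p. Its gene lies on chromosome 13 from 27251309 to 27256691 on hg38. It stood at 86.5, 84.0 and 85.4 FPKM with the empty vector and 89.9, 94.8 and 89.2 FPKM with ZBTB16. The groups did not overlap, and it was the single gene of the 76 with every ZBTB16 library above every empty-vector library, against 8.12% of all genes tested; 0 genes had the reverse, against 8.10%. Its log2 fold change was 0.10 ± 0.043 (SE), with an adjusted p (limma) of 0.495. RPS12, a small-subunit protein, was at 716, 651 and 652 FPKM and then 713, 718 and 709 FPKM. The ZBTB16 values of RPS12 were matched by empty-vector library 1 (log2 fold change 0.09, adjusted p (limma) 0.635). RPL12, at the base of the stalk, and RPL29 had log2 fold changes of 0.07 and 0.08, with adjusted p (limma) of 0.752 and 0.786.

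RPS23, a protein of the decoding centre that affects the accuracy of translation, had the lowest fitted fold. Its gene lies on chromosome 5 from 82273358 to 82278577, and its pyrimidine run is among the windows above. It was at 31.7, 27.8 and 28.4 FPKM with the empty vector and 29.6, 23.4 and 23.5 FPKM with ZBTB16. ZBTB16 library 1 lay among the empty-vector values and the other two below them. The log2 fold change was -0.20 (95% interval -0.42 to 0.02), with an adjusted p (limma) of 0.550. RPL30, RPL37 and RPS21 each had a log2 fold change of -0.10, with adjusted p (limma) of 0.738, 0.752 and 0.795. RPS21 was at 327, 270 and 291 FPKM and then 306, 257 and 264 FPKM, so library 1 was the highest of each group.

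Transcripts of the stalk proteins, which recruit the GTPase factors of translation, differed in level from each other more than between groups. RPLP0 was at 494, 457 and 461 FPKM with the empty vector and 485, 477 and 470 FPKM with ZBTB16. RPLP1 was at 573, 517 and 508 FPKM and then 514, 526 and 534 FPKM. RPLP2 was at 296, 249 and 258 FPKM and then 275, 241 and 250 FPKM. All 3 overlapped between groups, with log2 fold changes of 0.02, -0.02 and -0.07.

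Proteins with known roles beyond the ribosome or in disease overlapped too. RPL5 and RPL11, which enter the large subunit with the smallest ribosomal RNA and bind MDM2 when assembly fails, had log2 fold changes of -0.03 each, with RPL5 at 119, 117 and 119 FPKM and then 117, 122 and 110 FPKM. RPS19, the gene most often mutated in Diamond-Blackfan anaemia, was at 537, 451 and 467 FPKM and then 500, 471 and 487 FPKM. RPS6, phosphorylated by S6 kinases downstream of mTOR, was at 300, 283 and 265 FPKM and then 307, 303 and 278 FPKM, with a log2 fold change of 0.07 and an adjusted p (limma) of 0.801. RPS3, at the mRNA entry channel, was at 178, 158 and 162 FPKM and then 161, 162 and 162 FPKM. RPL3 and RPL10, near the peptidyl transferase centre, had log2 fold changes of -0.05 and 0.03, and RPSA, also known as the laminin receptor precursor, of 0.02.

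Single libraries were also compared with each other. Empty-vector library 1 was the highest of its 3 libraries in 72 of 76 genes, against 37.6% of all genes tested. ZBTB16 library 1 was the highest of its 3 in 53 of 76 genes, against 30.7%. These 2 libraries were the highest pair of all 6 in 49 of 76 genes, against 7.94%. Median deviations from the mean of the 6 libraries, in log2(FPKM + 1), were 0.09, -0.05 and -0.02 for the empty vector and 0.05, -0.02 and -0.05 for ZBTB16, while those of all genes tested lay within 0.004 of 0.

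**Figure D4:**
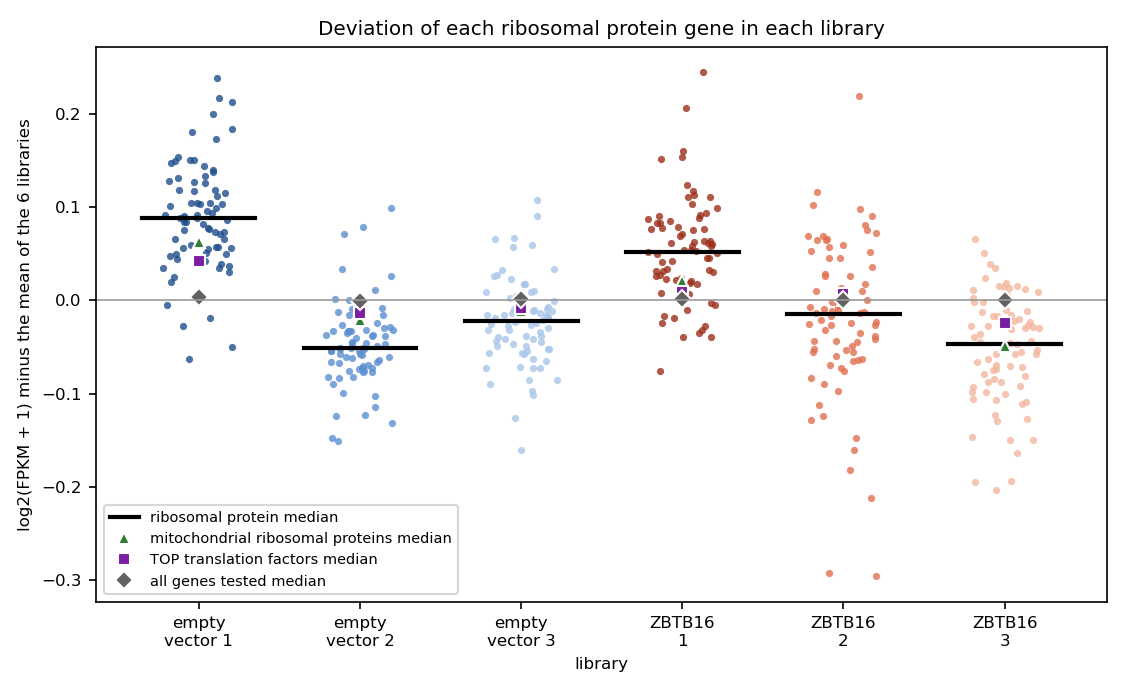
Log2(FPKM + 1) of each tested ribosomal protein gene minus its mean over the 6 libraries, by library; the black bar is the ribosomal protein median, and the triangle, square and diamond are the medians of mitochondrial ribosomal proteins, other TOP translation factors and all genes tested. The ribosomal protein median is 0.09 in empty-vector library 1 and 0.05 in ZBTB16 library 1, and below 0 in the other 4 libraries.

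Library against library, the median log2 ratio of (FPKM + 1) of empty-vector library 1 to library 2 was 0.14, with 36 of 76 genes at a ratio of 1.1 or more, against 18.4% of all genes tested, and 1 gene lower by that ratio (background 15.6%). Against library 3 the median log2 ratio was 0.12, with 27 genes at 1.1 or more (background 16.5%) and 0 lower by that ratio (15.2%). Libraries 2 and 3 of that group were closer, at a median log2 ratio of -0.02, with 1 gene at 1.1 or more (background 11.4%) and 5 lower by that ratio (12.5%). ZBTB16 library 1 had median log2 ratios of 0.05 to library 2 and 0.09 to library 3, with 19 and 23 genes at 1.1 or more (backgrounds 16.7% and 13.8%) and 2 and 1 lower by that ratio (15.4% and 12.5%). ZBTB16 libraries 2 and 3 had a median log2 ratio of 0.02, with 11 genes at 1.1 or more (background 17.4%) and 2 lower by that ratio (18.0%). Across groups, empty-vector library 1 had median log2 ratios of 0.04, 0.11 and 0.13 to ZBTB16 libraries 1, 2 and 3. Those of empty-vector library 2 were -0.10, -0.03 and -0.003, and those of library 3 were -0.07, -0.008 and 0.02, so the largest were of the size seen within groups. Each pair compares 2 libraries and has no replicate check.

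Several of the genes that varied most between libraries were short, though RPS23 was not. RPS29 was at 14.2, 11.4 and 13.1 FPKM with the empty vector and 14.1, 9.67 and 10.7 FPKM with ZBTB16. RPS28 was at 84.8, 67.4 and 79.6 FPKM and then 88.7, 60.7 and 71.1 FPKM. RPL38, which in mice is needed for translation of Hox mRNAs, was at 66.8, 51.8 and 59.1 FPKM and then 60.3, 51.7 and 50.8 FPKM. In all 3 genes the first library of each group was the highest. SDs of log2(FPKM + 1) over the 6 libraries were 0.209 for RPS29, 0.207 for RPS28 and 0.157 for RPL38, whose coding lengths are 168, 207 and 210 bases. RPL41 and RPL39 are shorter still, at 75 and 153 coding bases, and had lower SDs of 0.0952 and 0.0932. RPS15A, at 390 coding bases, had an SD of 0.125. The median over ribosomal protein genes was 0.0694, and over 683 other protein-coding genes averaging at least 50 FPKM it was 0.0668.

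Across the 76 genes, which share the same 6 libraries, coding length and this SD had a Spearman correlation of -0.52. The 9 genes with under 300 coding bases had median deviations of 0.17, -0.08 and 0.03 in the empty-vector libraries and 0.12, -0.12 and -0.13 in the ZBTB16 libraries. The 216 other protein-coding genes of that length had 0.07, -0.02 and -0.01 and then 0.01, 0.03 and -0.05, so empty-vector library 1 was highest there as well, and ZBTB16 library 1 was not. Other protein-coding genes of 1200 coding bases or more deviated by -0.02 in empty-vector library 1. The part of length in these deviations was not tested. Of the 9 short genes, 8 had a lower fitted fold with ZBTB16, against 51.5% of all genes tested, at a median log2 fold change of -0.10 and a smallest adjusted p (limma) of 0.752. The median of the 216 other protein-coding genes of that length was -0.02.

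**Figure D5:**
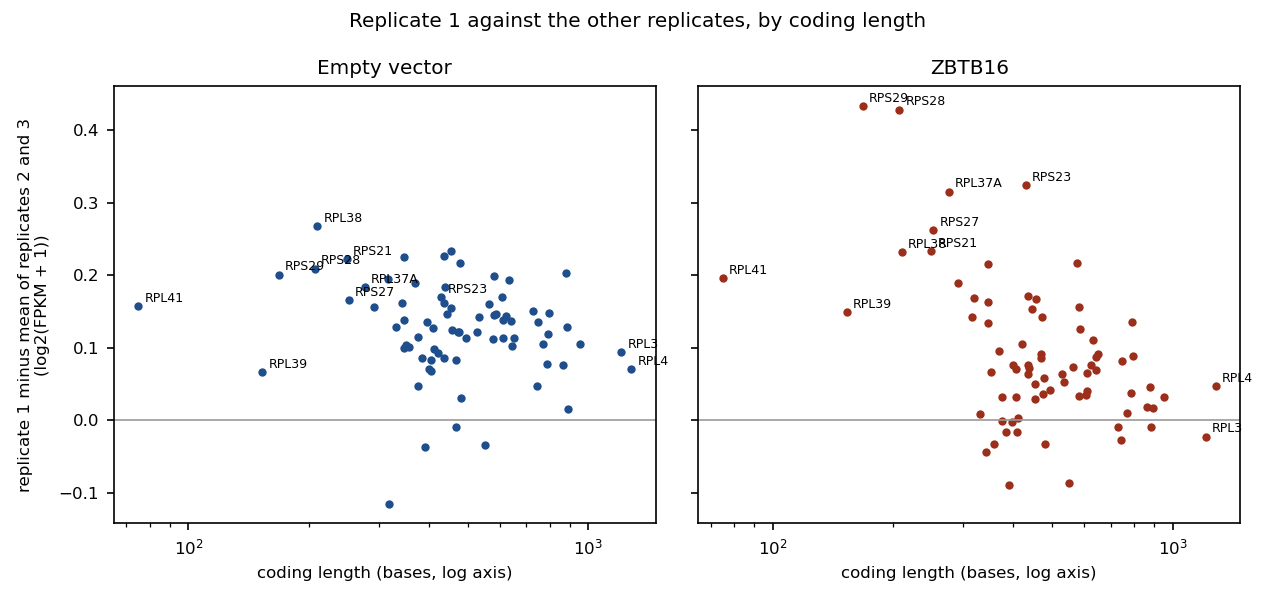
Log2(FPKM + 1) of library 1 minus the mean of libraries 2 and 3 for each tested ribosomal protein gene against its coding length (log axis), for the empty vector (left) and ZBTB16 (right). The difference is above 0 for 72 of 76 genes on the left and 63 on the right, and RPS29 and RPS28, among the shortest, are the highest on the right.

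The difference between library 1 and the other two had a median of 0.13 in the empty-vector group and 0.07 in the ZBTB16 group. Across the 76 genes the differences in the 2 groups had a Pearson correlation of 0.42, and across all genes tested 0.067. The shared number is a label, and whether it marks paired libraries is not stated.

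Related gene groups, with 0 genes called in each, are given for comparison. Of 21 other translation factors and proteins of the TOP class, 20 were tested, with a median log2 fold change of -0.02; HNRNPA1, an RNA-binding protein, was at 140 ± 2.70 and 131 ± 4.90 FPKM (SD, n = 3 each; adjusted p (limma) 0.532), and EIF3L, a translation initiation factor subunit, at 29.3 ± 1.09 and 27.2 ± 1.52 FPKM (adjusted p (limma) 0.580). Their median deviation in empty-vector library 1 was 0.04. Mitochondrial ribosomal proteins, which serve a separate ribosome, had 23 of 77 tested genes higher and 54 lower, at a median of -0.03, and a deviation of 0.06 in empty-vector library 1. At an unadjusted p of 0.05, 2 were higher and 2 lower. MRPL11 was at 19.8 ± 0.717 and 17.0 ± 0.596 FPKM (adjusted p (limma) 0.175), and MRPL23 at 13.6 ± 1.69 and 18.4 ± 2.10 FPKM (adjusted p (limma) 0.206).

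The 43 tested genes of a list of ribosome assembly and related factors had a median log2 fold change of -0.005. At an unadjusted p of 0.05, 5 of them were higher and 0 lower, against 5.08% and 5.17% of all genes tested. SBDS, which helps release an anti-association factor from the large subunit, was at 31.6 ± 0.542 and 35.6 ± 1.16 FPKM (SD, n = 3 each; adjusted p (limma) 0.206). That list also held TAF1A, a subunit of the RNA polymerase I selectivity factor and so a transcription factor subunit. It was at 2.89 ± 0.0489 and 3.57 ± 0.246 FPKM (adjusted p (limma) 0.225). Of the 8 paralogs with symbols ending in L or L1, 6 were tested. RPL39L was at 16.9 ± 0.430 and 15.1 ± 0.743 FPKM (adjusted p (limma) 0.297), and RPS27L at 13.9 ± 0.378 and 14.9 ± 0.704 FPKM (adjusted p (limma) 0.652).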

How the data were processed

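Gene-level FPKM values were deposited by the authors for 6 libraries of total RNA prepared with a TruSeq RNA kit, per the labels' protocols. HISAT2 2.0.5 and hg38 are named in the submitters' processing notes; no source used here names the read counter, its strand setting or its filters. FPKM values times deposited length came out as whole reads for 100% of values (tolerance 0.01), which gave the depths and an alternative fit. The main fit was limma 3.58.1 in R 4.3.3 (trended, robust) on log2(FPKM + 1), which understates folds of low genes. It covered genes averaging at least 1 FPKM, with two-sided tests and Benjamini-Hochberg adjustment over all of them. Simulated data were also fitted, with genes varying independently. Their folds exceeded those of the ribosomal protein genes in the main fit, so they do not bear on detecting folds of that size. The members and lists were chosen with earlier results of these data known. Named genes were the 4 with the smallest p in each direction, the 5 highest and 5 lowest, a role set, the 3 of largest spread, and 2 from each comparison list. Chosen after values or sequences had been seen were the coding-length scale and bins, the counts of highest library, the pseudogene and readthrough checks, the pyrimidine-run rule and both motifs, and the naming of RPL38, RPL9 and RPS28P7. Some genes stay in every fit and count and are not reported here by name. Whether equal replicate numbers mark paired libraries is not stated in the labels. Correlations of deviations over all genes tested were 0.067, 0.047 and -0.044 for equal numbers. They ran from -0.084 to 0.041 for unequal numbers, and such weak values cannot decide it. Starts are RefSeq's on GRCh38.p14. Alternatives were pseudocount, filter, gene set, scaling, voom, a replicate block and leaving out each library.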

Additional observations from a re-analysis of the deposited data

How the results depend on the processing

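In all 14 fits 0 ribosomal protein genes were called, with smallest adjusted p (limma) from 0.173 (voom) to 0.784 (no filter); with the replicate block it was 0.199, the count of calls stayed 0, the median log2 fold change stayed -0.0124, and 3 genes were lower at an unadjusted p of 0.05. The median ran from -0.0398 to 0.0242 when libraries were left out, and was -0.0200 with voom. Without empty-vector library 1, 5 genes were higher at an unadjusted p of 0.05, and without ZBTB16 library 1, 4 were lower. The shares of all genes at that p are given here for the main fit alone, 5.08% higher and 5.17% lower. These counts are therefore not read as a shift of the ribosomal protein genes. The share of reads differed by -0.145 to 0.0863 percentage points over the libraries left out. At a ratio of 1.2 in place of 1.1, the counts fell to 4 and 1 for empty-vector library 1 over libraries 2 and 3, 0 for library 2 over 3, 4 and 6 for ZBTB16 library 1 over 2 and 3, and 1 for library 2 over 3. Shares of all genes at a ratio of 1.2 are not given here. Over all genes, the main fit called 8 higher and 1 lower; protein-coding genes alone gave 56 and 33, a filter of 5 FPKM 44 and 31, voom 102 and 104, the block 12 and 3, no filter 1 and 0, and leaving out libraries 1 to 4 and 0 to 2. The cause was not tested.

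Among 362 refits of 28 named genes, none called, 19 changed sign. RPS19 was -0.000869 with voom. Over libraries left out, log2 fold changes ran from -0.0579 to 0.0141 for RPL11, -0.0690 to 0.0279 for RPL13A, -0.0833 to 0.0300 for RPL36A, -0.106 to 0.0124 for RPL41, -0.0649 to 0.0140 for RPL5, -0.0554 to 6.67e-05 for RPL8, -0.0531 to 0.0341 for RPLP1 and -0.121 to 0.00857 for RPLP2. They ran from -0.0431 to 0.0820 for RPS19, -0.0326 to 0.0435 for RPS27A, -0.225 to 0.0455 for RPS28, -0.0704 to 0.0156 for RPS3 and -0.0104 to 0.0604 for RPSA. With 3 libraries a group, differences inside the intervals given are not excluded. The intervals are per gene and unadjusted, while calls used p adjusted over all genes tested, so larger differences could also go uncalled. MRPL23, at a log2 fold change of 0.41, had an adjusted p (limma) of 0.206.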
